A study of Mus musculus with 8 samples.

Results

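The 10 genes described here encode enzymes that make prostaglandins and the receptors for prostaglandin E2: Ptgs1, Ptgs2, Ptges, Ptges2, Ptges3, Ptgis, Ptger1, Ptger2, Ptger3 and Ptger4. They were taken by gene symbol from 23115, 22923 and 22777 loci with a symbol in 3 expression tables. All 10 were listed in each table under their own symbol, and none was merged with another symbol. The genes were chosen by their FPKM in these same libraries, above all the high Ptgs2 in knockout cells, so the ratios between groups are given as a description, with no test.

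Prostaglandins are local lipid signals. Phospholipase A2 frees arachidonic acid from membranes, the cyclooxygenases convert it to prostaglandin H2, and terminal synthases turn that into prostaglandin E2, prostacyclin and others, which act on G protein-coupled receptors. Ptgs1 is the largely constitutive cyclooxygenase and Ptgs2 the inducible one. In mice, cyclooxygenase-2 is needed for normal muscle regeneration, and prostaglandin E2 acting through its EP4 receptor promotes the expansion of muscle stem cells.

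RNA was sequenced from mouse myoblasts (B6/129 background) grown from satellite cells, the stem cells of skeletal muscle, and differentiated for 24 h. The groups were UTX knockout (KO) females, wild type (WT) females, KO males, WT males, female KI and female Ctrl-KI. The KO and WT groups had 1 library each, and the KI and Ctrl-KI groups had 2 each, which the deposited table pools in 1 value per group. The female KO mice carried a floxed UTX allele, a floxed tdTomato reporter at Rosa26, and Pax7-CreER, in which the satellite cell gene Pax7 drives a Cre that tamoxifen switches on. The female WT mice carried the Cre and the reporter without the floxed UTX allele. The labels give no genotype for the male and KI libraries and do not say what allele KI carries. The protocol, worded for KO and WT cells, describes sorting for the reporter and growth in 20% serum with FGF (2.5 ng/mL) and 2.5 µM 4-hydroxytamoxifen. UTX, the product of the X-linked gene Kdm6a, removes methyl groups from histone H3. Ages and the number of mice per library are not given.

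Expression is in FPKM, a fragment count scaled for transcript length and library size, with a deposited confidence interval as the only error. Ratios are log2((FPKM + 1) mutant / (FPKM + 1) control), formed within a table. A gene was kept if it had at least 1 FPKM in 1 column of the table. The interval spanned a median of 120% of the value in female KO and 119% in female WT cells. It spanned 167% in male KO and 171% in male WT cells, and 39.8% in KI and 40.0% in Ctrl-KI cells. The median ratio of all kept genes was -0.08 in females, -0.02 in males and -0.04 in KI. Kdm6a was 16.9 FPKM in female KO and 20.8 in female WT cells, 2.08 in male KO and 7.87 in male WT cells, and 13.2 in KI and 12.8 in Ctrl-KI cells. Its intervals overlapped in each table, and FPKM of a whole gene cannot show the loss of single exons. All 9 muscle lineage markers, Pax7 to Ckm, were at 1 FPKM or more in each column.

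Ptgs2 was the 1 member at least 2-fold higher in all 3 mutant columns, so its promoter is shown first, followed by those of the other cyclooxygenase and of its partner synthase Ptges. The sequences are from RefSeq on build GRCm38.p6, which is not the mm9 build of the expression tables. Each runs from base -250 to base -1 before the annotated transcript start, on the strand of the gene. The lines give Ptgs2 at chr1:150099781-150100030 (plus strand), Ptgs1 at chr2:36230176-36230425 (plus strand) and Ptges at chr2:30903298-30903547 (minus strand). The additional Ptgs2 line is a site just inside the annotated transcript, bases 8 to 29, at chr1:150100038-150100059. Capitals mark motif matches.
Ptgs2 upstream: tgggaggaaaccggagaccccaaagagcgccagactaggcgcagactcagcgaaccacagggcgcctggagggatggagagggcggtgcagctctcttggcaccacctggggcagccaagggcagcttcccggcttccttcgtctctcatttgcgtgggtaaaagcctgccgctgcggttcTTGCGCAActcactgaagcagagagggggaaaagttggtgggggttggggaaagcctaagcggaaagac
Ptgs2 site after the start: ccactACGTCACGTGgagtccg
Ptgs1 upstream: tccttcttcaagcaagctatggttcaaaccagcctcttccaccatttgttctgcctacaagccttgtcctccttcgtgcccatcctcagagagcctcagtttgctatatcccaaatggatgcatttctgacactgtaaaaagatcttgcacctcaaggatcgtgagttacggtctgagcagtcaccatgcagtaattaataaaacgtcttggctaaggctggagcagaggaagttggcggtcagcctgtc
Ptges upstream: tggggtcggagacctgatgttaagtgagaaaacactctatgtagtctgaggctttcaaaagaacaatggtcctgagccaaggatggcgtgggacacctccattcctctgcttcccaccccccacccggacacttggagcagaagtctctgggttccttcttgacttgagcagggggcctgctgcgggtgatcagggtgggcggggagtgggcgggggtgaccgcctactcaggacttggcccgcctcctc

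Exact matches to 5 motifs were sought on both strands in the window from 250 bases before to 50 bases after the start. The motifs were the cyclic AMP response element core TGACGT, the E-box CACGTG, the C/EBP palindrome TTGCGCAA, the NF-kB consensus and the TATA box TATAAA. Ptgs2 held the C/EBP palindrome at bases -69 to -62, a cyclic AMP response element core at 13 to 18 and an E-box at 17 to 22, the last 2 overlapping. Of 27025 promoters in the table, 0.185% held the C/EBP palindrome, 7.64% the cyclic AMP response element core and 7.24% the E-box. The NF-kB consensus was in 0.385% and the TATA box in 14.2%. Of the other 7 members with an entry, Ptges2 had 1 match, an E-box, and Ptgs1, Ptges, Ptges3, Ptger2, Ptger3 and Ptger4 had 0. Ptger1 and Ptgis had no entry.

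**Figure D1:**
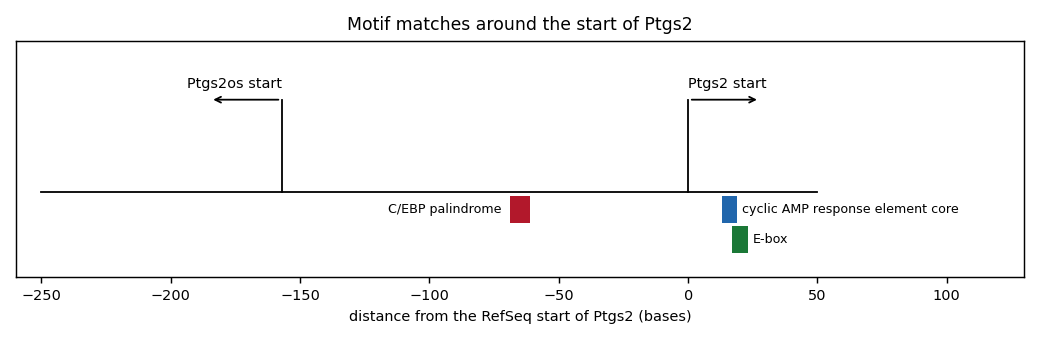
Positions of motif matches (coloured boxes) along the horizontal axis of distance in bases from the RefSeq start of Ptgs2, with arrows at the starts of Ptgs2 and of its divergent neighbour Ptgs2os. The C/EBP palindrome at -69 to -62 lies between both starts, and the cyclic AMP response element core and E-box overlap just after the start of Ptgs2.

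Ptgs2, cyclooxygenase-2 (mm9 chromosome 1, 151947254 to 151955142), was higher in each mutant column than in its control. It was 95.9 FPKM in female KO cells (interval 42.9 to 149), against 13.7 in female WT cells (6.16 to 21.2). In males it was 15.8 FPKM in KO (4.21 to 27.3), against 2.33 in WT (0.0375 to 4.62). In the third table it was 33.9 FPKM in KI (27.5 to 40.2), against 1.24 in Ctrl-KI (0.969 to 1.52). The intervals were apart in females and in KI and overlapped slightly in males.

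The plain FPKM ratio of Ptgs2 was close in both sexes, 7.01 in females and 6.77 in males, and was 27.2 in KI. On the log2 scale with 1 FPKM added, the ratios were 2.72, 2.33 and 3.96. Ranked by ratio among genes other than small RNA genes, Ptgs2 stood at place 6 of 12292 in females, 105 of 11344 in males and 19 of 10977 in KI. Of 7067 genes with at least 5 FPKM in 1 column of every table, 41 were at least 2-fold higher in all 3 mutant columns. Another 11 were at least 2-fold lower in all 3. Ptgs2 was the 1 gene of the 7067 at least 4-fold higher in all 3, a place noted after the values were seen. In males and KI it met the 5 FPKM minimum only through the mutant column, which fixed its direction there.

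The transcript next to Ptgs2 was also higher in each mutant column. It is the noncoding RNA 7530420F21Rik (mm9 chromosome 1, 151923791 to 151946896), which RefSeq names Ptgs2os and which, in GRCm38, starts on the opposite strand with 156 bases between both starts. It was 4.24 FPKM in female KO (interval 0.787 to 7.70) against 1.03 in female WT (0 to 2.21), 0.356 in male KO against 0.0526 in male WT, and 0.315 in KI against 0.0351 in Ctrl-KI. The intervals were apart in KI and overlapped in both KO tables, and in males and KI the transcript was under 1 FPKM in both columns. In mm9 the loci are 357 bases apart and do not overlap. This transcript was named after its values were seen.

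Ptgs1, cyclooxygenase-1 (mm9 chromosome 2, 36085946 to 36107789 in the female table), differed most in males. It was 14.5 FPKM in male KO cells (interval 3.35 to 25.7), against 1.52 in male WT cells (0 to 3.25). In females it was 2.50 FPKM in KO and 1.73 in WT, with overlapping intervals. In the third table it was 1.75 FPKM in KI and 0.481 in Ctrl-KI, with intervals apart, and it passed the 1 FPKM minimum there only through the KI column. The log2 ratios were 0.36 in females, 2.62 in males and 0.89 in KI.

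As FPKM is scaled by length, both cyclooxygenases can be set side by side within a column. Ptgs2 over Ptgs1 was 38.3 in female KO against 7.91 in female WT cells, and 19.4 in KI against 2.58 in Ctrl-KI cells. In males it was 1.09 in KO against 1.54 in WT, where both genes were higher in KO. The inducible enzyme was the more abundant cyclooxygenase transcript in all 6 columns, by a narrow margin in both male columns.

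**Figure D2:**
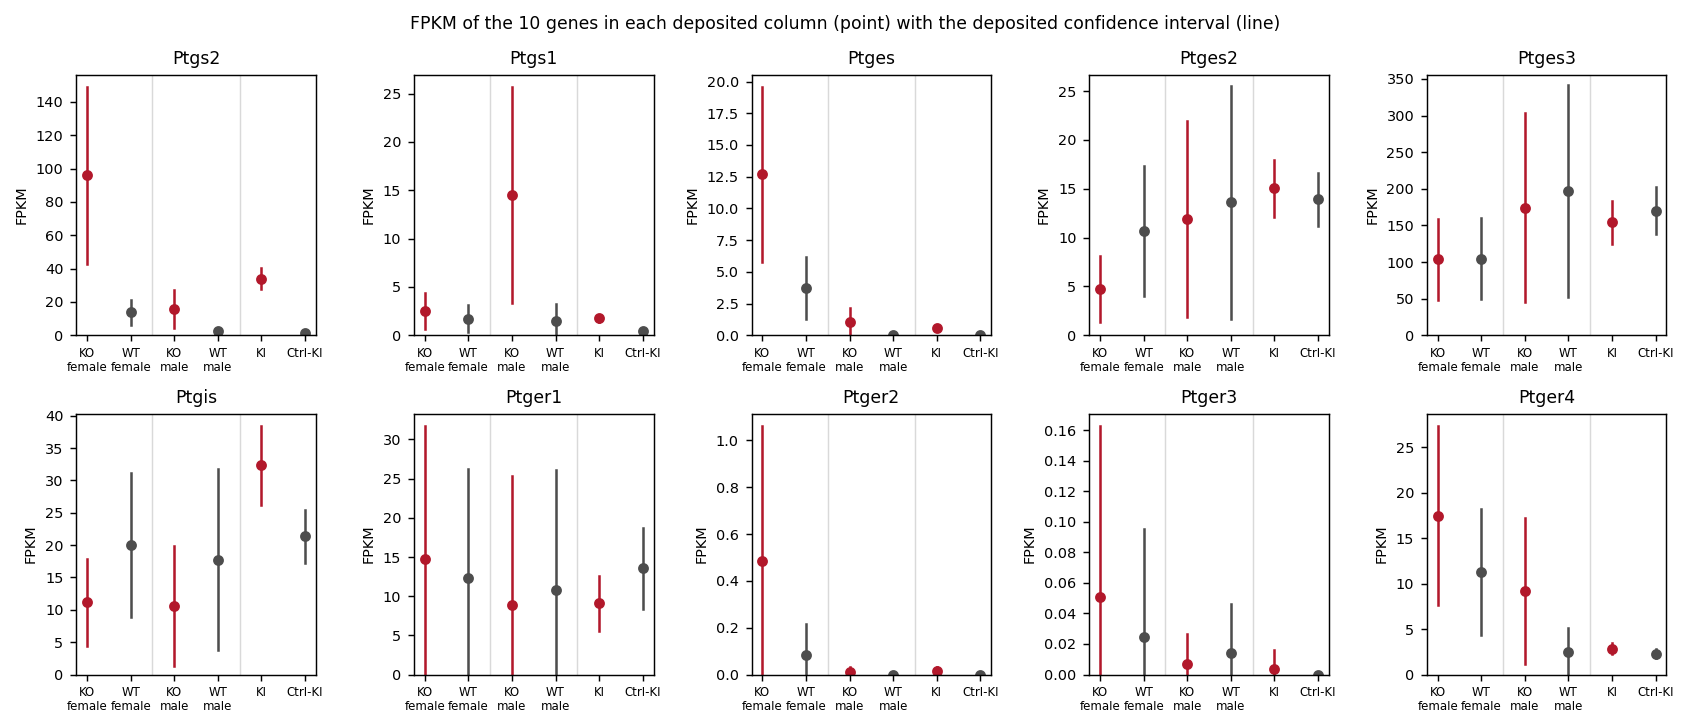
FPKM (vertical axis, from 0, its own scale per gene) of the 10 genes in the 6 deposited columns (horizontal axis), with mutant columns in red and controls in grey; points are FPKM and lines the deposited confidence intervals. Ptgs2 stands above its control in each pair, from 95.9 against 13.7 FPKM in females to 33.9 against 1.24 in KI, while Ptges3 lies within overlapping intervals throughout.

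The 4 terminal synthases differed in direction. Ptges (mm9 chromosome 2, 30744991 to 30758817), the inducible microsomal prostaglandin E synthase that often acts with cyclooxygenase-2, was 12.7 FPKM in female KO (interval 5.78 to 19.6), against 3.70 in female WT (1.27 to 6.14). In males it was 1.02 FPKM in KO (0 to 2.17), against 0.0563 in WT (0 to 0.135). In the third table it was 0.555 FPKM in KI (0.412 to 0.698), against 0.0493 in Ctrl-KI (0.0190 to 0.0796). It was higher in each mutant column, but the intervals were apart only in KI, where it stayed under 1 FPKM. The male value passed the minimum only through the KO column. The log2 ratio was 1.54 in females and 0.94 in males.

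Ptgis, the prostacyclin synthase, ran the other way in both KO comparisons. It was 11.2 FPKM in female KO and 20.0 in female WT cells, 10.6 in male KO and 17.8 in male WT cells, and 32.3 in KI and 21.4 in Ctrl-KI cells. The log2 ratios were -0.79 in females, -0.69 in males and 0.57 in KI. The intervals overlapped in both sexes and were apart in KI (26.2 to 38.4 in KI against 17.3 to 25.4 in Ctrl-KI). Ptgis over Ptges was 0.880 in female KO against 5.41 in female WT cells. In each of the other columns Ptgis was above Ptges.

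Ptges2, a second membrane-associated prostaglandin E synthase, was 4.74 FPKM in female KO and 10.7 in female WT cells, a log2 ratio of -1.03 with overlapping intervals. It was 11.9 FPKM in male KO and 13.6 in male WT cells, and 15.0 in KI and 13.9 in Ctrl-KI cells. Its female ratio lay just past 2-fold. Centred on the median of all genes it was -0.95, inside 2-fold.

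Ptges3 was the most abundant member in each column. Its protein is p23, a co-chaperone of HSP90 that also has prostaglandin E synthase activity. It was 104 FPKM in female KO and 105 in female WT cells, 174 in male KO and 197 in male WT cells, and 154 in KI and 170.3 in Ctrl-KI cells. The log2 ratios were -0.01, -0.18 and -0.14, with overlapping intervals in each table. Relative to the median of all genes, the female ratio was 0.07. Ptges3 made up 39.4% of the summed FPKM of the 10 genes in female KO and 58.7% in female WT cells, 70.8% in male KO and 80.2% in male WT cells, and 61.8% in KI and 76.3% in Ctrl-KI cells. The sum also holds Ptgs2, which was higher in each mutant column.

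Among the 4 receptors for prostaglandin E2, Ptger4 (EP4, mm9 chromosome 15, 5183404 to 5193831), which raises cyclic AMP, was the most abundant of the 3 whose locus overlaps no other. Ptger4 was 17.5 FPKM in female KO (interval 7.64 to 27.3) and 11.3 in female WT cells (4.40 to 18.2). It was 9.21 FPKM in male KO (1.21 to 17.2) and 2.46 in male WT cells (0 to 5.10), and 2.84 in KI and 2.30 in Ctrl-KI cells. It was higher in each mutant column, with overlapping intervals in each table and log2 ratios of 0.59, 1.56 and 0.22.

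The other cyclic AMP-coupled receptor, Ptger2 (EP2), was near 0. It was 0.485 FPKM in female KO and 0.0847 in female WT cells, 0.00997 in male KO cells and 0.0144 in KI cells, and was listed at 0 in male WT and Ctrl-KI cells. Ptger3 (EP3, which lowers cyclic AMP) was at or under 0.0505 FPKM in every column, its value in female KO cells. Ptger1 (EP1, which raises calcium) was 14.8 FPKM in female KO and 12.3 in female WT cells, 8.83 in male KO and 10.7 in male WT cells, and 9.07 in KI and 13.5 in Ctrl-KI cells. Its locus in the tables overlaps another, so its values are uncertain. The Ptger1 intervals reached 0 in all 4 KO and WT columns.

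In all, 8 of the 10 genes were kept in females and in males and 7 in KI. In females 3 of them were at least 2-fold different, Ptgs2 and Ptges higher and Ptges2 lower, where 8.89% of all kept genes were. In males 3 were, Ptgs2, Ptgs1 and Ptger4, all higher, where 16.4% of all kept genes were at least 2-fold different. In KI it was Ptgs2 alone, where 4.75% of genes were. Intervals were apart for 1 kept member in females (Ptgs2), 1 in males (Ptgs1) and 3 in KI (Ptgs2, Ptgs1 and Ptgis). All of these were higher in the mutant column. Over all kept genes the intervals were apart for 0.899% in females (0.664% higher), 0.865% in males (0.603% higher) and 12% in KI (8.27% higher). The same ratios chose the set, so nothing is read from these shares. The 2-fold shares depend on scale. Of the 2-fold calls among all female genes, 50.5% were higher, against 63.2% after centring on the median, 73.7% as TPM, 46.6% with a minimum of 5 FPKM and 44.3% with a pseudocount of 5 FPKM. In males the share was 60.5%, against 71.6% as TPM, 54.8% with that minimum and 48.3% with that pseudocount. In KI it was 81.2%, and from 76.2% to 86.4% under the same settings.

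Summed markers of fibro-adipogenic, endothelial and macrophage cells were higher in each mutant column beside Ptgs2. The summed FPKM of 11 fibro-adipogenic markers, the connective tissue cells of muscle, was 567 in female KO against 235 in female WT cells. It was 94.1 in male KO against 19.2 in male WT cells, and 317 in KI against 10.2 in Ctrl-KI cells. Of the 11 markers, 10 were higher in the mutant column of each comparison. The sums rested largely on few genes. Col1a1 was 325 FPKM in female KO and 158 in KI cells, and Col3a1 was 59.1 in male KO cells. Under 1 FPKM were 4, 6 and 3 of the 11 in female KO, male KO and KI cells, and 4, 9 and 10 in their controls. Pi16 was listed at 0 in female WT cells, and Lum in both male columns and in Ctrl-KI cells. The sum of 10 endothelial markers was 37.6 in female KO against 24.9 in female WT cells, 74.2 in male KO against 3.51 in male WT cells, and 11.2 in KI against 3.77 in Ctrl-KI cells, with 9 of 10 higher in each. Emcn alone was 40.6 FPKM of the male KO sum. Under 1 FPKM were 2, 5 and 8 of the 10 in female KO, male KO and KI cells, and 2, 8 and 8 in their controls. Tie1 was listed at 0 in male WT and Ctrl-KI cells, as was Emcn in Ctrl-KI cells.

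The sum of 10 macrophage markers was 4.65 in female KO against 1.82 in female WT cells, 10.1 in male KO against 1.52 in male WT cells, and 42.5 in KI against 1.05 in Ctrl-KI cells. They were higher for 6, 9 and 9 of the 10. Under 1 FPKM were 9 of the 10 in female KO and in male KO cells, 6 in KI cells and all 10 in each control. Lyz2 alone was 7.94 FPKM in male KO and 31.0 in KI cells. Listed at 0 were Fcgr1, C1qb and C1qc in female KO and Ptprc, Emr1, Fcgr1 and C1qa in female WT cells. Emr1 and Fcgr1 were listed at 0 in male WT cells, and Fcgr1, C1qa and C1qc in Ctrl-KI cells. The sum of 9 pericyte and smooth muscle markers was 474 in female KO against 801 in female WT cells, 862 in male KO against 2104 in male WT cells, and 2025 in KI against 2354 in Ctrl-KI cells. Of these 5, 6 and 7 were higher, and Kcnj8 was listed at 0 in male WT cells. The lower sum in the mutant columns came mostly from Acta2, smooth muscle actin. Acta2 was 312 FPKM in female KO against 663 in female WT cells, and 724 in male KO against 2000.3 in male WT cells. In the third table it was 1820 in KI against 2290 in Ctrl-KI cells. Without Acta2, left out after the values were seen, the other 8 summed to 162 against 139 in females and 139 against 104 in males. In KI they summed to 205 against 64.3. The male sums hold Tagln, 124 FPKM in KO against 83.4 in WT cells, a locus whose status was not OK. The higher male KO sum rests on Tagln, so the direction in males is uncertain. The 9 muscle lineage markers summed to 2660 FPKM in female KO against 6192 in female WT cells, 3521 in male KO against 12624 in male WT cells, and 9309 in KI against 10940.2 in Ctrl-KI cells. In these bulk libraries fewer cells of a type and less RNA per cell cannot be told apart. The part of other cell types in the Ptgs2, Ptgs1 and Ptges values was not tested.

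**Figure D3:**
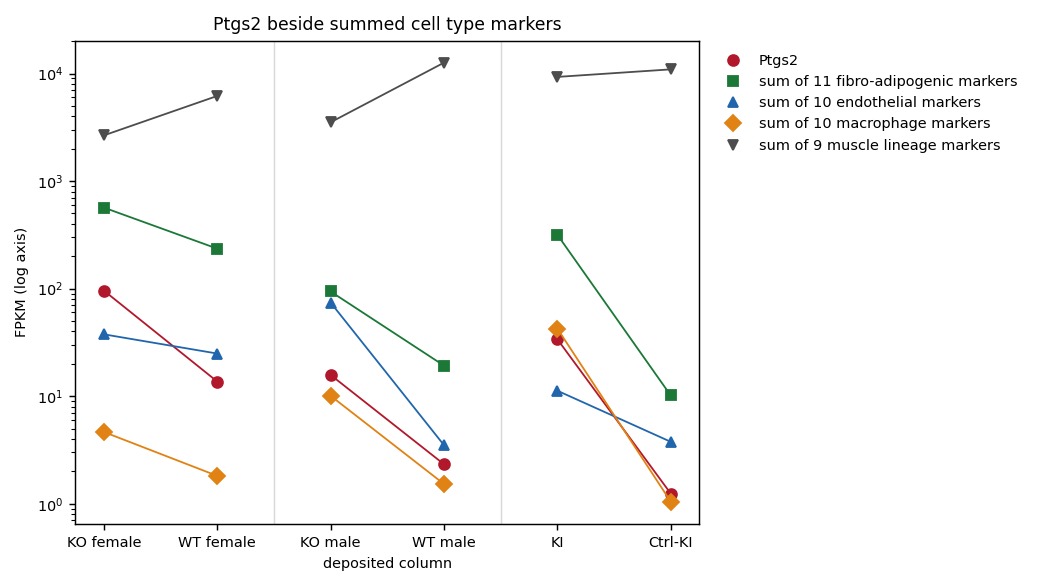
FPKM on a log axis (vertical) of Ptgs2 and of the summed markers of 4 cell types in the 6 deposited columns (horizontal), with a line joining each mutant column to its control. Ptgs2 and the fibro-adipogenic, endothelial and macrophage sums are higher in each mutant column, and the muscle sum is lower. The pericyte and smooth muscle sum, also lower in each mutant column, is not drawn.

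Upstream of the cyclooxygenases, Pla2g4a, the cytosolic phospholipase A2 that frees arachidonic acid, was higher in each mutant column. It was 12.0 FPKM in female KO (interval 5.22 to 18.8), against 2.57 in female WT (0.631 to 4.52). It was 13.1 FPKM in male KO (3.33 to 22.8), against 3.51 in male WT (0.146 to 6.87), and 13.9 in KI (11.3 to 16.6), against 1.57 in Ctrl-KI (1.22 to 1.91). The log2 ratios were 1.87, 1.64 and 2.54, with intervals apart in females and KI. Pla2g16, a phospholipase known from adipose tissue, was lower: 2.07 FPKM in female KO and 7.19 in female WT cells, 2.23 in male KO and 9.71 in male WT cells, and 6.73 in KI and 11.7 in Ctrl-KI cells.

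Anxa1, which encodes the phospholipase inhibitor annexin A1, was 157 FPKM in female KO and 107 in female WT cells. It was 502 in male KO and 128 in male WT cells, and 166 in KI and 66.0 in Ctrl-KI cells. Of the genes of arachidonate release that were kept, 1 of 9 was at least 2-fold higher and 1 lower in females, 2 of 7 higher and 1 lower in males, and 2 of 7 higher and 0 lower in KI. Across all kept genes 4.49% were at least 2-fold higher and 4.4% lower in females, 9.9% and 6.47% in males, and 3.86% and 0.893% in KI. The medians of the list were -0.27, -0.05 and 0.02, near those of all genes (-0.08, -0.02 and -0.04).

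Of the synthases of other prostaglandins, Ptgds and Fam213b were at least 2-fold lower in female KO cells and Ptgds in male KO cells, all with overlapping intervals. Ptgds, the lipocalin-type prostaglandin D synthase, was 5.22 FPKM in female KO and 16.8 in female WT cells, and 0.407 in male KO and 3.97 in male WT cells. The male ratio of Ptgds was kept only through the WT column, so its direction is fixed. In the KI table Ptgds is merged with another symbol and was left out. Fam213b, a prostaglandin F synthase listed under its older symbol 2810405K02Rik, was 2.28 FPKM in female KO and 13.6 in female WT cells, with log2 ratios of -2.15 in females, -0.93 in males and -0.45 in KI. The aldose reductase Akr1b3, which also makes prostaglandin F, had ratios of -0.37, -0.50 and -0.52, and the highest of the list were Akr1b8 in females (-0.06) and Cbr1 in males (0.04) and KI (-0.23). Akr1b8 was the lowest in KI, at -0.97. The list had 0 of 5 genes at least 2-fold higher and 2 lower in females, 0 of 5 and 1 in males and 0 of 4 and 0 in KI. Over all kept genes 4.49%, 9.9% and 3.86% were higher and 4.4%, 6.47% and 0.893% lower. The medians of the list were -0.37, -0.50 and -0.48.

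Of the genes for breakdown and transport, the exporter Abcc4 was 14.1 FPKM in female KO and 4.31 in female WT cells, and 4.18 in male KO and 0.762 in male WT cells. Slco2a1, the prostaglandin uptake carrier, was 7.01 FPKM in male KO (1.20 to 12.8) and 0.215 in male WT cells (0 to 0.496), with log2 ratios of 0.42 in females, 2.72 in males and 0.97 in KI. Ptgr1, a reductase that inactivates prostaglandins, was 34.9 FPKM in female KO and 17.3 in female WT cells, and 15.9 in male KO and 7.04 in male WT cells. Slco4a1 was the highest of the list in females (log2 ratio 1.85) and Ptgr2 the lowest (-0.79), Slco3a1 was the lowest in males (-0.36) and Ptgr1 in KI (0.08). At least 2-fold higher were 2 of 6 genes in females, 3 of 4 in males and 0 of 3 in KI, against 4.49%, 9.9% and 3.86% of all kept genes. None was 2-fold lower, against 4.4%, 6.47% and 0.893%, and the medians were 0.69, 1.31 and 0.27. Genes under 1 FPKM in the control column, among them Abcc4 and Slco2a1 in male WT cells, were kept only through the mutant column, so the direction of their ratio is fixed.

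Other prostanoid receptors were scarce. Of 6 listed, 2 were kept in females and 1 in males and KI. Ptgir, the prostacyclin receptor, was 5.80 FPKM in female KO and 2.12 in female WT cells, and under 1 FPKM in the other columns. Ptgfrn, a protein that binds the prostaglandin F receptor, had ratios of -0.27, 0.09 and 0.02. In the lipoxygenase branch, which makes leukotrienes from the same arachidonic acid, 3, 2 and 2 of 14 genes were kept. Alox5, the leukotriene-forming lipoxygenase, was 10.7 FPKM in male KO and 2.17 in male WT cells (log2 ratio 1.88), 1.29 in KI and 0.452 in Ctrl-KI cells, and under 1 FPKM in both female columns. Lta4h, leukotriene A4 hydrolase, had ratios of 0.52 in females, 0.66 in males and -0.62 in KI. In females Aloxe3 was the highest of this list (0.62) and Ltc4s the lowest (-0.68). Aloxe3 in females and Alox5 in KI were kept only through the mutant column, so their direction is fixed. Of the kept genes 0 of 3, 1 of 2 and 0 of 2 were at least 2-fold higher in females, males and KI, and none was 2-fold lower. Over all kept genes 4.49%, 9.9% and 3.86% were higher and 4.4%, 6.47% and 0.893% lower. The medians of these few genes were 0.52, 1.27 and 0.02.

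Among 18 regulators of Ptgs2, the growth factor receptor Egfr and its ligand Hbegf were at least 2-fold higher in each mutant column. Egfr was 30.4 FPKM in female KO and 10.6 in female WT cells, 9.30 in male KO and 2.34 in male WT cells, and 4.85 in KI and 1.23 in Ctrl-KI cells. Hbegf was 19.5 FPKM in female KO and 8.74 in female WT cells, 20.2 in male KO and 4.27 in male WT cells, and 18.8 in KI and 6.18 in Ctrl-KI cells. The intervals of both were apart in KI and overlapped in both sexes.

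Cebpb, a C/EBP transcription factor that binds the Ptgs2 promoter in other mouse cells, was 143 FPKM in female KO and 66.5 in female WT cells, and 61.9 in male KO and 34.6 in male WT cells. Its intervals overlapped in both sexes. In KI its locus is merged with another symbol and was left out. Il6, an inflammatory cytokine, was the highest of the list in females (9.25 FPKM in KO and 2.52 in WT cells) and in KI (3.73 in KI and 0.224 in Ctrl-KI cells). The cytokines Il1a and Tnf did not reach 1 FPKM in any column. The lowest were the kinase Mapk14 in females (-0.13), the RNA decay factor Zfp36l1 in males (-1.49) and the RNA-binding protein Elavl1 in KI (-0.23). At least 2-fold higher were 5 of 15 genes in females, 2 of 14 in males and 3 of 14 in KI, against 4.49%, 9.9% and 3.86% of all kept genes. At least 2-fold lower were 0, 2 and 0, against 4.4%, 6.47% and 0.893%. The medians were 0.60, 0.13 and 0.52. In KI, Il6 was kept only through the KI column, so its direction there is fixed.

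Genes that respond to cyclic AMP, the messenger of EP2 and EP4, were mixed. Nr4a2, a nuclear receptor placed downstream of EP4 in mouse muscle stem cells, was 5.73 FPKM in female KO and 2.51 in female WT cells, 12.3 in male KO and 1.67 in male WT cells, and 1.95 in KI and 1.51 in Ctrl-KI cells. Pde4b, a phosphodiesterase that degrades cyclic AMP, was 47.4 FPKM in female KO and 19.4 in female WT cells, 9.78 in male KO and 1.25 in male WT cells, and 2.65 in KI and 1.31 in Ctrl-KI cells. The kinase Sik1 was the lowest in males (log2 ratio -1.29) and the coactivator Ppargc1a in females (-0.81) and KI (-0.46). At least 2-fold higher were 1 of 15 genes in females, 3 of 15 in males and 0 of 14 in KI, against 4.49%, 9.9% and 3.86% of all kept genes. At least 2-fold lower were 0, 2 and 0, against 4.4%, 6.47% and 0.893%. The medians were 0.27, 0.33 and 0.19. Of the male genes counted, Areg (higher) was kept only through KO and Nr4a3 (lower) only through WT, so their direction is fixed.

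The genes of the HSP90 machinery in which p23 works were mostly within 2-fold of their control level, as was Ptges3 itself. Of 14 genes kept in each table, 0 were 2-fold different in females and males. In KI 1, Fkbp5, was 2-fold higher (4.91 FPKM in KI and 1.86 in Ctrl-KI cells). Over all kept genes 8.89%, 16.4% and 4.75% were 2-fold different in females, males and KI. Fkbp5 was the highest in males too (0.87), and the glucocorticoid receptor Nr3c1 in females (0.71). The lowest were Ahsa1 in females (-0.58), Stip1 in males (-0.50) and Hsp90aa1 in KI (-0.43). Of the 14, only 5 in females, 3 in males and 2 in KI had a ratio above 0. The medians were -0.24, -0.26 and -0.16, lower than those of all kept genes (-0.08, -0.02 and -0.04).

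**Figure D4:**
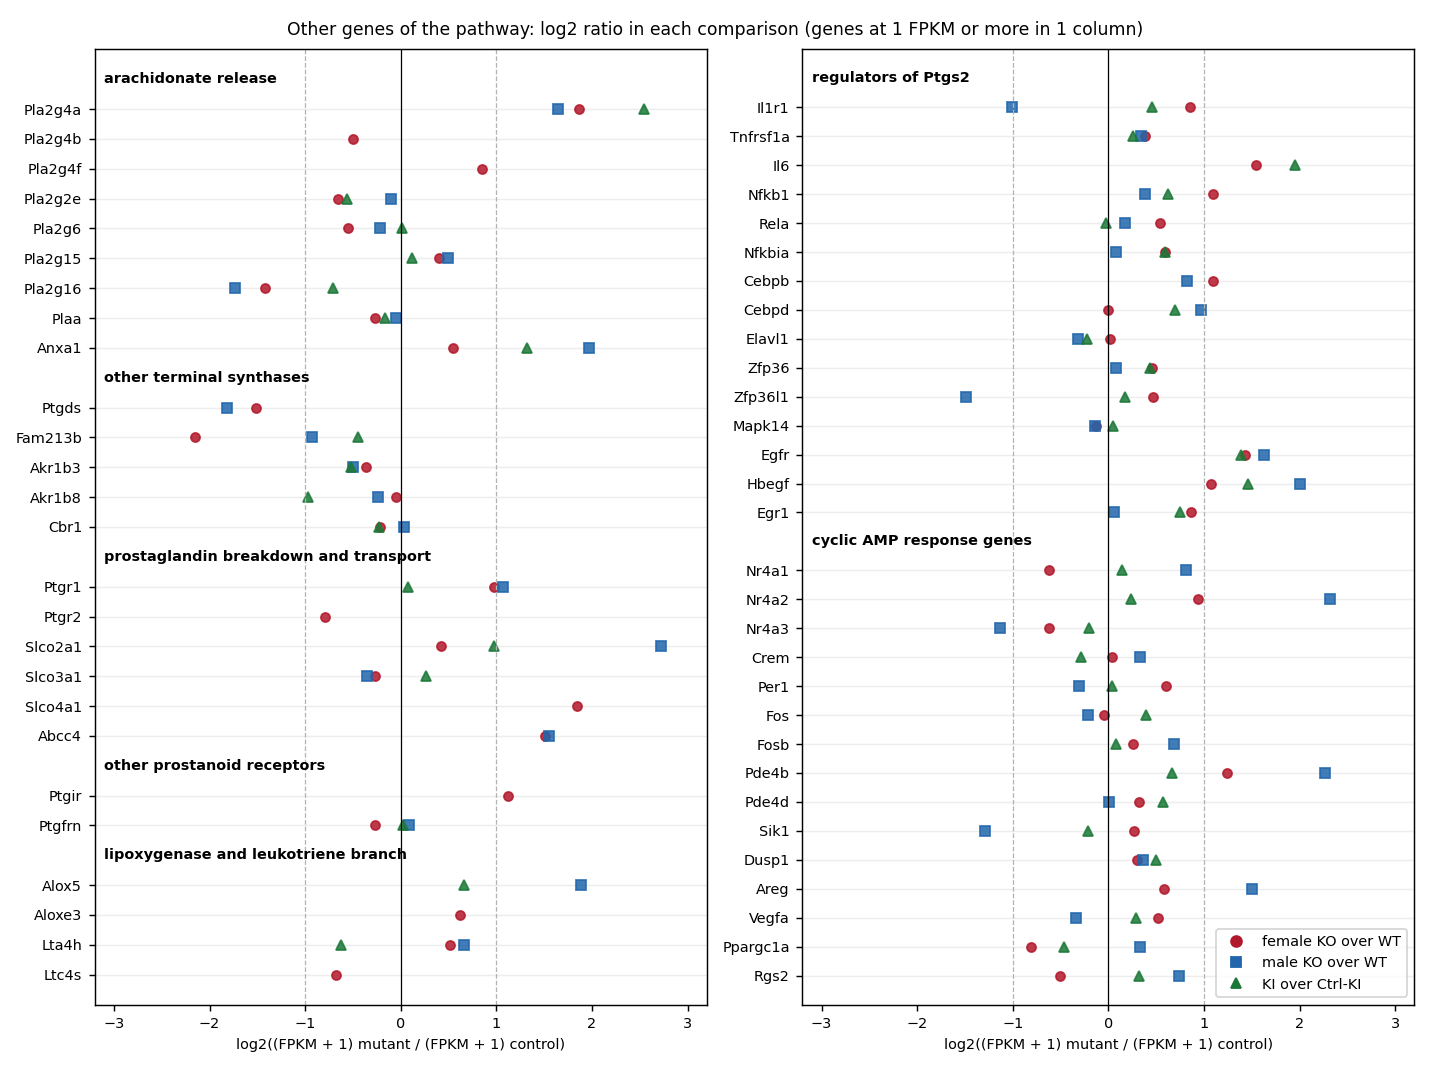
Log2 ratio of mutant over control FPKM, with 1 FPKM added (horizontal axis), of the other pathway genes (vertical axis) in females (circles), males (squares) and KI (triangles); dashed lines mark 2-fold. Pla2g4a, Egfr and Hbegf lie right of the 2-fold line in all 3 comparisons, and Pla2g16 lies left of 0 in all 3.

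The KO effect on these other genes was tested with limma on the female and male ratios, which leaves the difference between the sexes as the error (1 residual degree of freedom). Of 61 genes kept in both tables, 0 passed a Benjamini-Hochberg adjusted p of 0.05 over the 10482 genes tested, nor did any of the 10482 (0%). At an unadjusted limma p under 0.05 there were 18 of 61, against 2079 of all 10482. The lists were chosen with earlier results of these data known, so nothing is read from this difference. Among the 18, Areg was under 1 FPKM in both WT columns and was kept only through KO. The smallest adjusted p from limma, 0.0922, was shared by Pla2g4a (1.75 ± 0.25, mean log2 ratio ± moderated SE), Ptgds (-1.67 ± 0.26), Egfr (1.53 ± 0.24), Abcc4 (1.53 ± 0.25) and Pla2g16 (-1.57 ± 0.26). Each had the same direction in both sexes. In males, though, Abcc4 was kept only through the KO column and Ptgds only through the WT column, which fixed their male direction. Over the alternative settings the adjusted p from limma ran from 0.0485 to 0.663 for Pla2g4a and for Egfr. With a minimum of 5 FPKM, which left 7732 genes in the fit, both passed. Pla2g4a met that minimum only through the KO column in both sexes, and Egfr did so in males. The direction of those ratios was thus fixed, and nothing is read from their passing.

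The genes whose 3 ratios lay nearest to those of Ptgs2, by Euclidean distance among the 7067 genes with at least 5 FPKM in 1 column of every table, were Fstl1, Emp1, Inhba, Fbn1 and Timp3. Their distances ran from 1.17 to 1.75 log2 units over 3 comparisons. Fstl1, a secreted glycoprotein, had log2 ratios of 1.58 in females, 2.27 in males and 3.73 in KI. Inhba, the activin A subunit, had 1.55, 2.66 and 4.40. All 5 were below Ptgs2 in females, where Ptgs2 was at 2.72. In males and KI, Inhba, Fbn1 and Timp3 met the 5 FPKM minimum only through the mutant column, as did Ptgs2. The direction of their ratios there was thus fixed.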

How the data were processed

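RNA-seq of 8 libraries in 6 groups was analysed. Groups were taken from titles. The authors deposited, per the file headers, FPKM with confidence bounds and a status in 3 Cufflinks/Cuffdiff gene tables, 1 library per column for KO and WT and 1 pooled column per KI group. The submitters' processing notes name mm9 as build and list Cuffdiff, edgeR, bedtools 2.16.2, HTSeq 0.6.1, Cufflinks 2.2.1, TopHat2 2.0.12 and Bowtie2 2.2.4, with no roles. The annotation, confidence level, strand and scaling between libraries are not given in the sources used here. Read depth is unknown, since FPKM keeps no totals.

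Loci without a symbol (0, 5680 and 5971 in females, males and KI) and 6, 61 and 15 loci whose status was not OK were left out. The male pericyte and smooth muscle sums still held Tagln, whose status was not OK. Starts are printed 1 higher, since 210 of 211 microRNA loci have their RefSeq length only when starts count from 0. The 3 tables come from separate estimates, and levels were compared only within a table. Merged loci were left out of lists. The joint fit used limma 3.58.1 under R 4.3.3, with its trend option, and was tested on simulated data. Other steps used python 3.11.15 and pandas 2.3.3. Whether libraries came from separate animals is not stated, so p-values measure only the spread between these libraries.

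The members and lists were chosen with earlier results of these data known. Named are all members, the highest and lowest gene of each pathway list per table, and the 5 genes nearest to Ptgs2; other list genes were named after their values were seen. Alternatives were other pseudocounts, filters, centring, TPM, the deposited intervals and no trend.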

Additional observations from a re-analysis of the deposited data

Results flagged for a closer look

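Of 92 members and list genes kept in both sexes, 22 had log2 ratios of KO over WT with opposite signs in the sexes. Given here are the 2 past 1.5-fold in each sex and the 1 member among the 22. With 1 library per group these differences were not tested. Il1r1, an interleukin-1 receptor, was 11.3 FPKM in female KO and 5.84 in female WT cells (ratio 0.85), but 11.1 in male KO and 23.5 in male WT cells (-1.01). Nr4a1, a cyclic AMP-responsive nuclear receptor, had ratios of -0.62 in females and 0.81 in males. Both passed 1.5-fold in each sex. The member, Ptger1, had 0.24 in females and -0.26 in males, with intervals that reached 0.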

How the results depend on the processing

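No paired analysis was possible because the KI table holds 1 pooled column per group, so replicate numbers of KI and Ctrl-KI could not be used. The joint fit already sets KO against WT within each sex. Leaving out a library was not possible either, as each group has 1 column. Ptgs2 was at least 2-fold higher in each comparison under each pseudocount, filter and scaling tried. Of 134 recomputed ratios of members, 0 of those past 2-fold changed sign and 7 moved outside the range their deposited bounds give. Among the 7 was Ptgs2 in KI, which was 2.64 with a pseudocount of 5 FPKM and 4.66 with 0.1 FPKM. A filter cannot change a ratio, and a pseudocount cannot change its sign. Only centring and TPM could have reversed a ratio, so nothing is read from the count of sign changes. Counted by deposited intervals apart in place of 2-fold, the members differing were 1 in females (from 3), 1 in males (from 3) and 3 in KI (from 1). In KI the count was also 2 with a pseudocount of 0.1 FPKM and 3 as TPM, which added Ptgs1, then Ptges. There Ptgs1 was kept only through the KI column, so its direction is fixed, and Ptges was under 1 FPKM in both columns. In males the count was 4 with 0.1 FPKM and as TPM, which added Ptges (2.84 and 1.60), and 2 with 5 FPKM, where Ptger4 was 0.93. Male Ptges was kept only through the KO column, which fixed its direction. In females it was 2 with 5 FPKM, centred and as TPM, where Ptges2 was -0.69, -0.95 and -0.94. A minimum of 5 FPKM let 2 other pathway genes, Pla2g4a and Egfr, pass in the joint fit, with 130 of 7732 genes. Pla2g4a met that minimum only through the KO column in both sexes, and Egfr did so in males. The other settings of the joint fit gave 0 pathway genes.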
